A study of Mus musculus with 6 samples.

Results

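The 10 genes described here code for matrix metalloproteinases and their inhibitors, read in embryonic cranial base, the cartilage that carries the brain, leaving out the collagenase Mmp13 and the gelatinase Mmp9 of bone resorption. They were chosen by symbol: the 6 proteinase genes Mmp2, Mmp11, Mmp14, Mmp15, Mmp16 and Mmp23 and the 4 inhibitor genes Timp1, Timp2, Timp3 and Timp4, out of 43496 entries in the deposited table. Each symbol matched 1 entry, and all 10 were among the 15710 entries with a mean of at least 1 FPKM (fragments per kilobase of transcript, scaled to library size) that were tested. RNA came from the cranial base of 3 Memo1 mutant embryos, which carried an allele made with the chemical mutagen ENU, and of 3 control embryos. All were at E15.5, in days of gestation, and of strain C57BL/6J, with 1 library from each embryo. The labels do not give the genotype of the controls beyond that word, nor whether the mutants carried 1 or both copies of the allele, and the tissue was not sorted.

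Matrix metalloproteinases are zinc enzymes that cut collagens, proteoglycans and other proteins outside the cell. They are made as inactive precursors, and the tissue inhibitors of metalloproteinases, the TIMPs, block the active site of the finished enzyme. In connective tissue Mmp14 is a collagenase of the cell surface, and with Timp2 as a bridge it binds and activates the precursor of Mmp2, so that Timp2 takes part in activation as well as in inhibition.

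No gene of the 10 differed between genotypes past the threshold, an adjusted p under 0.05 by limma over all genes tested, and 0% of the 15710 genes did. In 4 of the 10 the genotypes did not overlap, against 20.9% of all genes tested. Every mutant lay above every control for 3 of them, Mmp2, Mmp14 and Timp3 (8.98% of all genes), and below every control for 1, Timp2 (11.9% of all genes). These differences were small. The mutant mean was 18.4% above the control mean for Mmp2, 9.22% above it for Mmp14 and 22% above it for Timp3, and for Timp2 it was lower (-15.9%). At an unadjusted p under 0.05 limma gave 805 genes, or 5.12%, with Mmp2 and Timp2 among them. With 3 embryos against 3 an exact two-sided permutation test of a single gene cannot give a p below 0.1.

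Of the 10 genes 8 have a promoter entry in RefSeq (build GRCm38.p6). Those of Mmp14, Timp2 and Timp3 are shown because the genotypes did not overlap in these genes; Mmp2 has no entry. The 250 bases before the transcription start are given on the strand of the gene, 5′ to 3′, with each GC box (GGGCGG on either strand) in capitals.
Mmp14, chr14:54431348-54431597, plus strand: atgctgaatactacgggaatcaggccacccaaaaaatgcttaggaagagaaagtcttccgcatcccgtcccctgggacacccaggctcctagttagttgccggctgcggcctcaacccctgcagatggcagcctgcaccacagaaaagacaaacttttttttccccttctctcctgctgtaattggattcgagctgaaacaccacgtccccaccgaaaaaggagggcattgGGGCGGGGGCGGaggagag
Timp2, chr11:118355412-118355661, minus strand: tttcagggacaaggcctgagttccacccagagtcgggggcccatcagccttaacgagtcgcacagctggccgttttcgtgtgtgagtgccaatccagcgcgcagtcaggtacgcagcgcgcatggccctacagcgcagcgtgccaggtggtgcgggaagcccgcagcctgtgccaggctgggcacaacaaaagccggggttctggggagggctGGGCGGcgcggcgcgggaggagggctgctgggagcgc
Timp3, chr10:86300162-86300411, plus strand: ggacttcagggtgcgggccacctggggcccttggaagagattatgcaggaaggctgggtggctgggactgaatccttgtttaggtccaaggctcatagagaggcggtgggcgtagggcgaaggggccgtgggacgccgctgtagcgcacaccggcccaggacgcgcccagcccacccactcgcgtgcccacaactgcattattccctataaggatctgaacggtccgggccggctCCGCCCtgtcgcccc
A GC box was found in 6 of the 8 members with an entry, all but Mmp23 and Timp4, and in 32.7% of all 32851 promoters searched over the same length. The AP-1 element TGANTCA and the sequence TATAAA, each on either strand, were found in 0 of the 8, against 6.75% and 12.4% of all promoters. These matches describe the letters and do not show binding.

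Mutant 1 stood apart from the other 5 libraries, and the fitted changes of the genes and lists below are therefore given with and without it. In it 30811 genes had the value 0, where the others had 19787 to 20594 such genes, and 823 of its genes at 0 exceeded 5 FPKM in every other library. Correlations of log2 values across genes, which are not independent, were 0.748 to 0.762 between mutant 1 and the rest and 0.968 to 0.981 within the rest. From the steps between low FPKM values, mutants 2 and 3 had 117% and 152% of the depth of control 1, and controls 2 and 3 had 80.2% and 93.4% of it. For mutant 1 there were no such steps, and its depth is unknown. The mRNA of Memo1 itself was 22.6 ± 2.67 FPKM in mutants and 21.4 ± 2.04 FPKM in controls (SD, n = 3 each), which does not check the labels, since ENU alleles are mostly base substitutions. Summed over 8 cartilage cell markers, mutants had 4176 to 4794 FPKM and controls 2890 to 3750 FPKM, with all 8 higher in mutants by fitted change. Summed over 8 osteoblast markers, mutants had 381 to 642 FPKM and controls 980 to 1383 FPKM, with 6 of 8 lower and Bglap at 0 in at least 1 library. Summed over 8 markers of fibroblasts and perichondrium, mutants had 3069 to 3393 FPKM and controls 3261 to 4101 FPKM, with 7 of 8 lower. The sums of this list overlapped between genotypes. Sums of 4 of the other 9 marker lists were, like that of osteoblasts, lower in every mutant than in any control. One was the osteoclast list, at 41.1 to 51.9 FPKM in mutants and 92.7 to 128 FPKM in controls. The epithelial list came to 217 to 299 FPKM in mutants and 392 to 419.9 FPKM in controls. Of its 7 genes 5 were below 0 in fitted change and 2 were above 0. The skeletal muscle list came to 646 to 762 FPKM in mutants and 852 to 1250.3 FPKM in controls, although 3 of its 5 tested genes were above 0 in fitted change. The fat cell list came to 12 to 67.5 FPKM in mutants and 103 to 134 FPKM in controls. Of its 6 genes 5 were at 0 in mutant 1, and of these only Lep was at 0 in any other library. The other 5 lists overlapped. In whole tissue fewer cells of a type and less RNA per cell cannot be told apart, and the part of this shift in the results below was not tested.

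The secreted gelatinase Mmp2, which cuts denatured collagen and basement membrane collagen, was the most abundant of the 10. It was 220.3, 199 and 201 FPKM in mutants 1, 2 and 3, against 168, 174 and 182 FPKM in controls 1, 2 and 3. The lowest mutant was thus above the highest control, and the highest value was that of mutant 1. The log2 change of FPKM + 1 was 0.24, SE 0.082 (95% interval 0.04 to 0.44, limma adjusted p = 0.695). Without mutant 1 it was 0.20, SE 0.070 (limma adjusted p = 0.241). With array weights, which let a library far from its group count less, it was 0.20, SE 0.059 (limma adjusted p = 0.131). That is the lowest adjusted p of any of the 10 genes over 13 settings. The weight of mutant 1 was 0.0329, against 1.47 to 2.76 for the other libraries. The weighted fit is thus close to the one without mutant 1 and is not separate support.

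Mmp14, the membrane-anchored collagenase also called MT1-MMP, came second in level. It was 181, 177 and 182 FPKM in mutants 1, 2 and 3, against 159, 163 and 172 FPKM in controls 1, 2 and 3. Its mutants had a coefficient of variation of 1.29%, the lowest among the 10 genes in the mutant group, and all lay above the controls. The log2 change was 0.13, SE 0.075 (95% interval -0.06 to 0.31, limma adjusted p = 0.695), and 0.12, SE 0.072, without mutant 1 (limma adjusted p = 0.431). Mmp2 exceeded Mmp14 in all 6 libraries, by a ratio of 1.15 ± 0.0613 in mutants and 1.06 ± 0.00636 in controls (SD, n = 3 each), although the ranges of the genes overlapped across libraries.

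The other membrane-type proteinases, Mmp15 and Mmp16, were far lower, and the genotypes overlapped. Mmp15 was 16.1, 19.7 and 18.5 FPKM in mutants 1, 2 and 3, against 17.9, 18.3 and 17 FPKM in the controls. Mmp16 was 28, 18.2 and 17.4 FPKM in mutants 1, 2 and 3, against 15.8, 18.7 and 17 FPKM in the controls. Mutant 1 was the lowest library for Mmp15 and the highest for Mmp16. The log2 change of Mmp15 was 0.02, SE 0.13 (95% interval -0.29 to 0.34, limma adjusted p = 0.924), and 0.10, SE 0.084, without mutant 1 (limma adjusted p = 0.571). That of Mmp16 was 0.26, SE 0.21 (95% interval -0.26 to 0.78, limma adjusted p = 0.695), and 0.05, SE 0.099, without mutant 1 (limma adjusted p = 0.82). Mmp14 made up 82.1 ± 1.55% of the summed FPKM of Mmp14, Mmp15 and Mmp16 in mutants and 82.5 ± 1.03% in controls (SD, n = 3 each), so the make-up of these 3 genes differed by less than its spread.

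Mmp11, or stromelysin-3, is a secreted proteinase of connective tissue cells that leaves the cell already active, and Mmp23 is a small membrane-bound member without the propeptide switch common to the family. Mmp11 was 15.7, 37.2 and 44 FPKM in mutants 1, 2 and 3, against 37.1, 35.5 and 39.9 FPKM in the controls. Its direction rested on mutant 1: the log2 change was -0.33, SE 0.38, with all 6 libraries (limma adjusted p = 0.708) and 0.11, SE 0.10, without that library (limma adjusted p = 0.628). Mmp23 was 15.2, 17 and 16 FPKM in mutants 1, 2 and 3, against 15.7, 9.56 and 15.504 FPKM in the controls. Here the value that stood apart was the low one of control 2. The log2 change of Mmp23 was 0.26, SE 0.22 (limma adjusted p = 0.695), 0.29, SE 0.21, without mutant 1 (limma adjusted p = 0.527), and 0.04, SE 0.16, without control 2 (limma adjusted p = 0.93).

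Timp2, the inhibitor that also bridges Mmp14 and the Mmp2 precursor, was the most abundant TIMP. It was 129, 133 and 153 FPKM in mutants 1, 2 and 3, against 166, 164 and 162 FPKM in controls 1, 2 and 3. The coefficient of variation was 1.1% in the controls and 9.27% in the mutants, and the highest mutant was below the lowest control. The log2 change was -0.25, SE 0.094 (95% interval -0.48 to -0.02, limma adjusted p = 0.695), and -0.20, SE 0.083, without mutant 1 (limma adjusted p = 0.288).

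Timp3 stays bound to the matrix and also inhibits ADAM and ADAMTS proteinases, among them those that cut aggrecan. It was 60.8, 56.2 and 70.2 FPKM in mutants 1, 2 and 3, against 49.9, 54.7 and 48.8 FPKM in the controls. The gap between the groups was narrow, 56.2 FPKM in the lowest mutant and 54.7 FPKM in the highest control. The log2 change was 0.28, SE 0.12 (95% interval -0.02 to 0.58, limma adjusted p = 0.695), 0.29, SE 0.11, without mutant 1 (limma adjusted p = 0.272), and 0.33, SE 0.10, with array weights (limma adjusted p = 0.139).

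Timp1, a soluble inhibitor that acts weakly on membrane-type proteinases, was the gene in which the odd library mattered most. It was listed at 0 in mutant 1 and was 44.6 and 39.6 FPKM in mutants 2 and 3, against 51.3, 42.1 and 56.6 FPKM in the controls. Mutants 2 and 3 overlapped with the controls, since control 2 lay below mutant 2. The log2 change was -2.05, SE 1.5 (95% interval -5.78 to 1.69, limma adjusted p = 0.695), and -0.24, SE 0.14, without mutant 1 (limma adjusted p = 0.428). Timp1 is X-linked, and mutant 3 was the only female by Xist, the RNA of the inactive X (114 FPKM, against at most 0.0942 FPKM in any other library). For Timp1 and for every other gene, the sex of mutant 3 and its other traits cannot be told apart.

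Timp4, the TIMP best known from heart and brain, was the lowest of the 10. It was 6.86, 0.974 and 1.2 FPKM in mutants 1, 2 and 3, against 1.45, 1.22 and 1.16 FPKM in the controls, so that 5 libraries lay near 1 FPKM and mutant 1 alone was high. The log2 change was 0.51, SE 0.59, with all 6 libraries (limma adjusted p = 0.706), and it turned to -0.13, SE 0.15, without mutant 1 (limma adjusted p = 0.712).

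**Figure D1:**
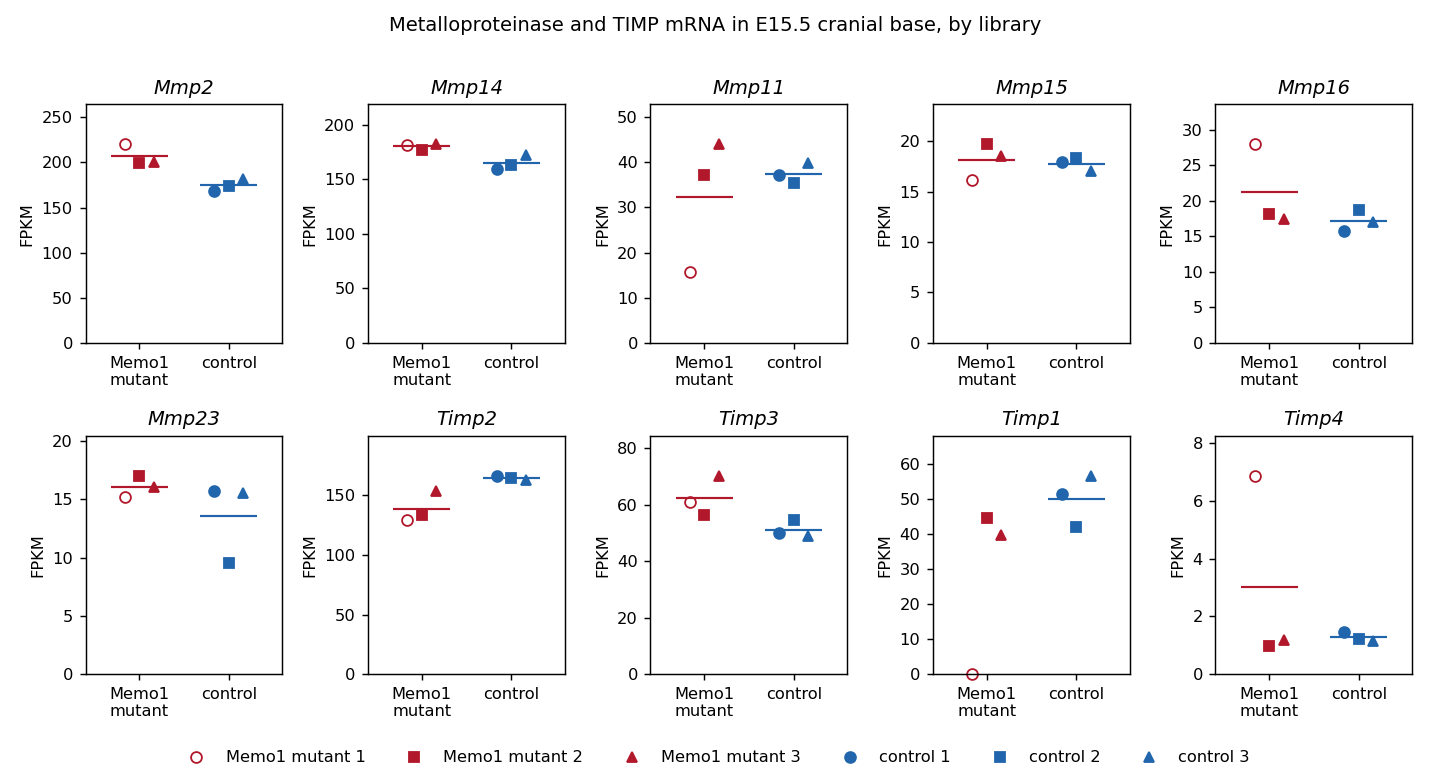
FPKM of each of the 10 genes (vertical axis, linear from 0) in the 3 Memo1 mutant libraries (left) and the 3 control libraries (right). Lines are group means, left out where a library is at 0, and the open circle is mutant 1. Mmp2, Mmp14 and Timp3 show all mutants above all controls and Timp2 all mutants below them, while Mmp11, Mmp16, Timp1 and Timp4 show mutant 1 apart from the other 5 libraries.

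By fitted change 7 of the 10 genes were above 0 and 3 below with all 6 libraries, with a median log2 change of 0.18, where the median over all genes tested was -0.05. Without mutant 1 the counts were again 7 and 3, with a median of 0.11 against -0.01 over all genes. The median size of the change, whatever its sign, was 0.26 among the 10 and 0.30 among all genes with all 6 libraries, and 0.16 and 0.14 without mutant 1. The members' changes were thus close in size to those of the table as a whole. With mutant 1 left out, limma again called 0 of the 10 (0.0446% of all genes). Mutants 2 and 3 then stood clear of the controls in 6 of the 10, with Mmp15 and Mmp23 added above the controls, where 36.3% of all genes tested did the same.

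**Figure D2:**
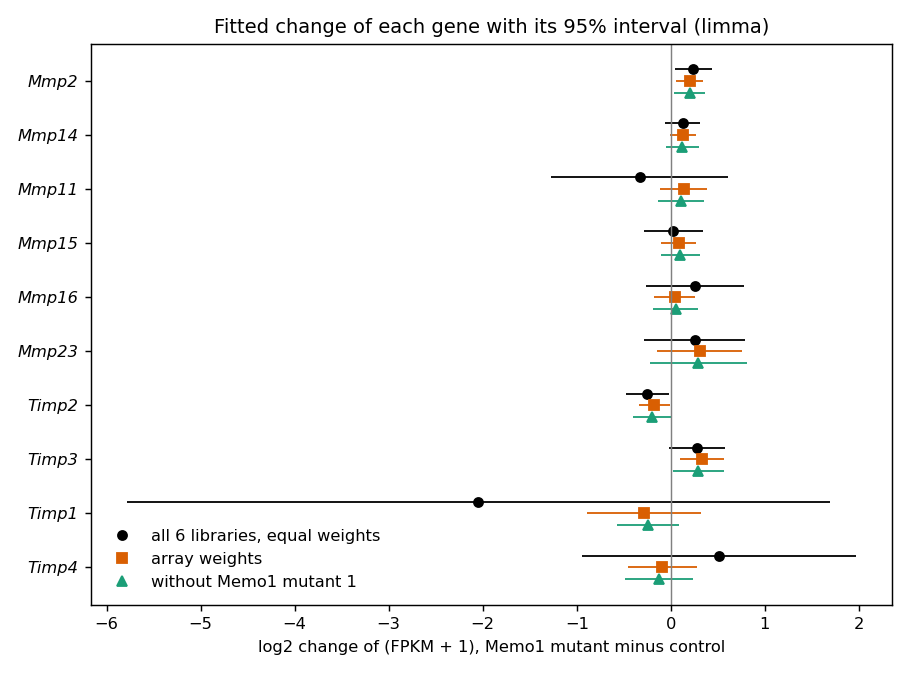
Fitted log2 change of FPKM + 1, Memo1 mutant minus control, of each gene (horizontal axis) with its 95% interval (lines), for all 6 libraries with equal weights (black circles), with array weights (orange squares) and without mutant 1 (green triangles). The interval of Mmp2 lies above 0 in the 3 fits drawn, but with the first word of the sample title as a block it ran from -0.05 to 0.58. That of Timp2 lies below 0 with all 6 libraries and with array weights. That of Timp3 lies above 0 with array weights and without mutant 1. That of Timp1 with all 6 libraries runs from -5.78 to 1.69. The intervals are not adjusted for the number of genes, and the last 2 fits are close to each other.

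Samples that share the first word of their title were also set against each other, since that word may mark a shared source that is not given. Mutant 3 shares it with controls 2 and 3. Within that set mutant 3 minus the mean of the controls was 0.18 on the log2 scale for Mmp2, 0.12 for Mmp14, -0.1 for Timp2 and 0.43 for Timp3, each outside the range of the 2 controls. Mutant 1 shares its word with control 1, and its difference was 0.39 for Mmp2, 0.19 for Mmp14, -0.36 for Timp2 and 0.28 for Timp3. For these 4 genes every mutant lay beyond every control, so their direction in both sets was fixed beforehand and adds no support. Of the other members, Mmp11, Mmp15, Mmp16 and Mmp23 did not keep their sign across the sets. Timp1 was at -0.3 for mutant 3 and at -5.71 for mutant 1, where it was listed at 0. Timp4 was at 0.01 for mutant 3, within the range of the 2 controls, and at 1.68 for mutant 1. Each set holds too few libraries for a test, and mutant 2 shares its word with no other library.

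The order of levels over the 5 libraries other than mutant 1 fell into tiers. Mmp2, Mmp14 and Timp2 averaged 185, 171 and 156 FPKM, and each overlapped in range with its neighbour. Timp3, Timp1 and Mmp11 averaged 55.9, 46.9 and 38.8 FPKM, again with overlapping neighbours, and Timp3 lay below Timp2 in every library. Mmp15, Mmp16 and Mmp23 averaged 18.3, 17.4 and 14.8 FPKM with overlapping ranges, and all of them lay below Mmp11 in these 5 libraries. Timp4 averaged 1.2 FPKM. Of Mmp14 and Timp2, Mmp14 was the higher in 3 of 3 mutants and in 1 of 3 controls. In the controls the pair was nearly level, with Mmp14 over Timp2 at 0.957 to 1.06.

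The ratio of proteinase to inhibitor mRNA was read within each library. Mmp14 over Timp2 was 1.4, 1.34 and 1.19 in mutants 1, 2 and 3, against 0.957, 0.992 and 1.06 in the controls. Mmp2 over Timp2 was 1.71, 1.5 and 1.31 in mutants 1, 2 and 3, against 1.01, 1.06 and 1.12 in the controls. The 3 mutants lay above the 3 controls in both ratios, and the mutant nearest to the controls was mutant 3 in each. Among the inhibitors Timp2 over Timp3 was 2.12, 2.36 and 2.18 in mutants 1, 2 and 3, against 3.33, 3 and 3.33 in the controls. Timp3 took 30.9%, 24% and 26.6% of the summed TIMP FPKM in mutants 1, 2 and 3, against 18.6%, 20.9% and 18.1% in the controls. In mutant 1 that sum holds no Timp1, which made up 15% to 21.1% of it in the other libraries. These ratios combine genes already seen to lie apart, share Timp2 and were given no test.

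Summed over the 6 proteinases, mutants held 476, 468 and 478 FPKM, against 414, 419 and 443 FPKM in the controls. The 4 inhibitors summed to 197, 234 and 264 FPKM in mutants 1, 2 and 3, against 269, 262 and 269 FPKM in the controls; the lowest of these is the library with Timp1 at 0. With Timp1 left out of the inhibitors, proteinases over inhibitors came to 2.42, 2.47 and 2.13 in mutants 1, 2 and 3, against 1.9, 1.9 and 2.09 in the controls. Mutant 3 and control 3 lay close together on that ratio.

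**Figure D3:**
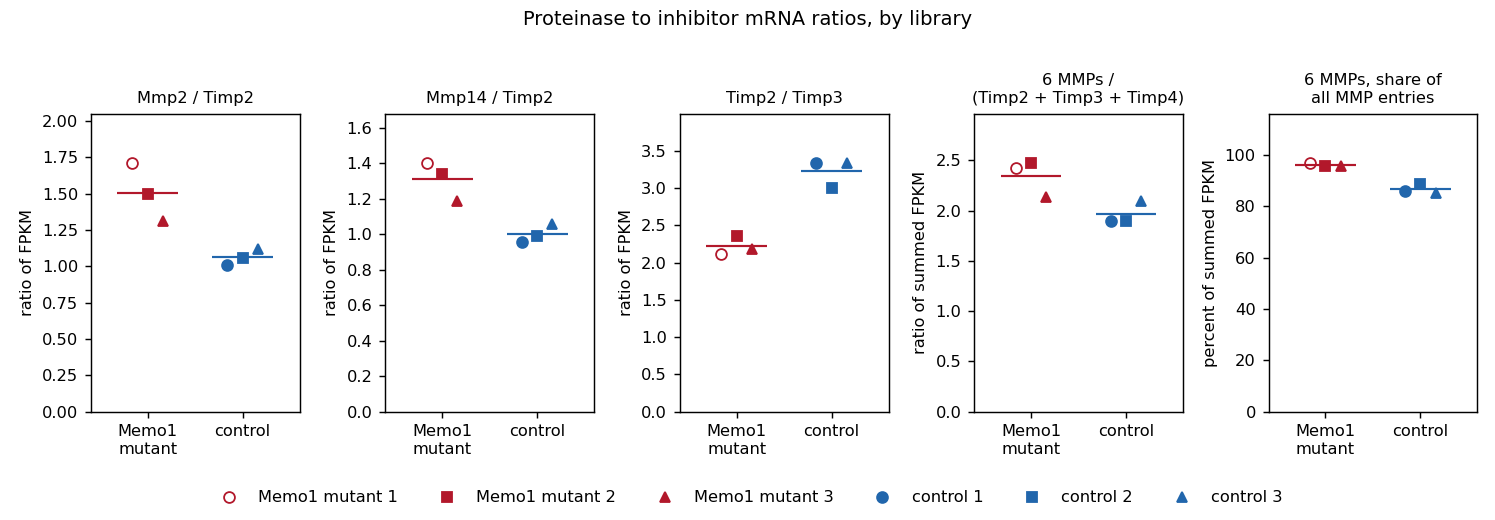
Ratios of FPKM between the genes named above each panel (first 4 panels) and the share of the 6 proteinases in the summed FPKM of all 23 metalloproteinase entries (last panel, percent), for Memo1 mutant libraries (left) and control libraries (right), with group means as lines. Mutants lie above controls in every panel but that of Timp2 over Timp3, where they lie below, at 2.12 to 2.36 against 3 to 3.33.

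The rest of the family was mostly low in this tissue. Of 17 other metalloproteinase entries 12 had a mean under 1 FPKM, and 4 of those were listed at 0 in all 6 libraries. The 5 above that were Mmp9, Mmp13, Mmp17, Mmp24 and Mmp28, the last 3 named after their values were seen. Mmp28 was 7.92, 5.19 and 5.69 FPKM in mutants 1, 2 and 3, against 4.95, 5.57 and 5.08 FPKM in the controls, Mmp17 lay between 1.71 and 2.21 FPKM in every library and Mmp24 reached at most 3.51 FPKM. Mmp9 was 5.6, 5.93 and 4.4 FPKM in mutants 1, 2 and 3, against 26, 19.4 and 31.3 FPKM in the controls. Mmp13 was listed at 0 in mutant 1 and was 1.28 and 1.19 FPKM in mutants 2 and 3, against 27, 19 and 33.3 FPKM in the controls. Both passed with array weights (limma adjusted p = 0.0103 for Mmp9 and 0.00159 for Mmp13), where 2.04% of all genes were called, and neither passed with equal weights (limma adjusted p = 0.437 for each). Without mutant 1 Mmp13 passed (limma adjusted p = 0.00981) and Mmp9 did not (limma adjusted p = 0.0507). Of the 6 osteoclast markers, a list that holds Mmp9 itself, 3 were tested and all were lower. Acp5, an acid phosphatase of osteoclasts, was 7.26, 4.3 and 3.3 FPKM in mutants 1, 2 and 3, against 19.9, 12.6 and 18 FPKM in the controls (limma adjusted p = 0.695, and 0.0125 with array weights). Ctsk, the osteoclast cathepsin K, was 39, 30.6 and 42.3 FPKM in mutants 1, 2 and 3, against 81, 59 and 77.9 FPKM in the controls (limma adjusted p = 0.695, and 0.0475 with array weights). The remaining 3, Calcr, Ocstamp and Dcstamp, had too low a mean to be tested. Each was at 0 in mutant 1, and Dcstamp also in mutant 3. The part of the shift in osteoclast markers in the values of Mmp9 and Mmp13 was not tested. Together Mmp9 and Mmp13 made up 1.24 ± 0.199% of all metalloproteinase FPKM in mutants and 10.5 ± 2.19% in controls (SD, n = 3 each). The 6 proteinases described here made up 96.1 ± 0.588% of it in mutants and 86.8 ± 1.86% in controls (SD, n = 3 each), while the total was 493 ± 5.26 FPKM in mutants and 490.1 ± 25.6 FPKM in controls (SD, n = 3 each).

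Genes that activate or hold these enzymes were read from lists chosen for their known roles. Of 11 activators and membrane partners 8 were above 0 in fitted change and 3 below (median log2 change 0.07, against -0.05 over all genes). Without mutant 1 the counts were 5 above and 6 below, with a median of -0.01, the same as over all genes. Of the 11 genes 0 passed by limma, with 1, Furin, at an unadjusted p under 0.05 (5.12% of all genes did). Furin, the convertase that cuts the propeptide of Mmp11 and of the membrane-type proteinases inside the cell, was 71.4, 60.5 and 57.9 FPKM in mutants 1, 2 and 3, against 47.5, 46.6 and 54.1 FPKM in the controls. Every mutant lay above every control (log2 change 0.35, SE 0.13, limma adjusted p = 0.695, and 0.26, adjusted p = 0.231, without mutant 1). Pcsk5, a related convertase, was 8.95, 10.1 and 8.8 FPKM in mutants 1, 2 and 3, against 6.37, 7.23 and 7.22 FPKM in the controls, again without overlap (log2 change 0.37, SE 0.16, limma adjusted p = 0.695, and 0.40, adjusted p = 0.169, without mutant 1). Of the 11 genes, 3 lay above the controls without overlap and 0 below, where 20.9% of all genes tested did not overlap.

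The plasminogen system, which can activate metalloproteinase precursors outside the cell, had 5 of 8 genes tested. Of these 3 were above 0 and 2 below with all 6 libraries (median log2 change 0.16, against -0.05 over all genes). The balance turned without mutant 1, to 1 above and 4 below (median -0.15, against -0.01 over all genes). By limma 0 passed with equal weights, with 1, Serpine2, at an unadjusted p under 0.05 (5.12% of all genes did). Plat, the tissue plasminogen activator, was 14.3, 18.5 and 21.6 FPKM in mutants 1, 2 and 3, against 11.6, 14.2 and 13.2 FPKM in the controls (log2 change 0.44, SE 0.19, limma adjusted p = 0.695). With array weights, where 2.04% of all genes were called, Plat rose (weighted log2 change 0.61, SE 0.11, limma adjusted p = 0.0433), and without mutant 1 it did not pass (limma adjusted p = 0.104). Serpine2, an inhibitor of plasminogen activators and thrombin, was 121, 177 and 166 FPKM in mutants 1, 2 and 3, against 232, 204 and 223 FPKM in the controls. Its mutants all lay below its controls (log2 change -0.52, SE 0.16, limma adjusted p = 0.695, with adjusted p = 0.0571 under array weights, and -0.36, adjusted p = 0.129, without mutant 1). Of the 5 genes tested, 1 lay above the controls without overlap and 1 below, where 20.9% of all genes tested did not overlap.

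Of 25 ADAM and ADAMTS proteinases, some of which Timp3 inhibits, 18 were above 0 and 7 below (median log2 change 0.16, against -0.05 over all genes). Without mutant 1 the counts were 16 and 9 and the median was 0.04, against -0.01 over all genes. By limma 0 passed with equal weights, with array weights or without mutant 1. At an unadjusted p under 0.05 the count with equal weights was also 0. Adamts14, a procollagen N-proteinase, was 12.1, 9.07 and 8.32 FPKM in mutants 1, 2 and 3, against 6.11, 5.24 and 7.75 FPKM in the controls. Adamts16 was 3.49, 1.48 and 1.67 FPKM in mutants 1, 2 and 3, against 0.701, 0.92 and 0.825 FPKM in the controls. These 2 had the smallest p of the list and no overlap between groups (log2 change 0.55 and 0.77, limma adjusted p = 0.695 for both, and 0.41 and 0.50 without mutant 1, adjusted p = 0.272 and 0.178). Of the 25 genes, 5 lay above the controls without overlap and 1 below, where 20.9% of all genes tested did not overlap.

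Among 12 matrix proteins that these enzymes cut, 7 were above 0 and 5 below (median log2 change 0.02, against -0.05 over all genes). Without mutant 1 the counts were again 7 and 5 (median 0.07, against -0.01 over all genes). By limma 0 passed with equal weights, where 6 had an unadjusted p under 0.05 (5.12% of all genes did), and 1 passed with array weights (2.04% of all genes did). That one was Acan, the cartilage proteoglycan aggrecan, at 142, 101 and 107 FPKM in mutants 1, 2 and 3, against 75.5, 72.5 and 86 FPKM in the controls (weighted log2 change 0.44, SE 0.084, limma adjusted p = 0.0491, and 0.41, adjusted p = 0.126, without mutant 1). Col1a2, a chain of the bone and skin collagen that Mmp14 cuts, was 569, 745 and 633 FPKM in mutants 1, 2 and 3, against 1036, 916 and 1250 FPKM in the controls (log2 change -0.71, SE 0.15, limma adjusted p = 0.695, 0.0525 with array weights, and 0.129 without mutant 1, where the log2 change was -0.62). Acan was also among the 8 cartilage cell markers above.

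Genes with the pattern most like that of the 3 most abundant members were found by the root mean square difference of centred log2 values over the 6 libraries. The nearest to Mmp2 were Clasrp at 0.0278 and Oaf at 0.0315, those to Mmp14 were Zfp651 at 0.0233 and Tenc1 at 0.0273, and those to Timp2 were Hmmr at 0.0249 and Nsfl1c at 0.0312. For comparison, the members themselves varied across the 6 libraries with an SD of 0.146, 0.0804 and 0.161 on the log2 scale. Within a difference of 0.05 there were 28, 34 and 18 genes of the 15710 tested.

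Several of these loci overlap other genes in the GENCODE annotation of GRCm38, which was used for neighbourhood only, since the files are of mm9. Timp1, Timp3 and Timp4 overlap the synapsin genes Syn1, Syn3 and Syn2 on the opposite strand, Timp2 overlaps Cep295nl on the same strand, and Mmp11 overlaps Chchd10 on the opposite strand. Exon bases are shared in part: 21.3% of those of Timp3 with Syn3, 5.6% of those of Mmp11 with Chchd10 and 1.5% of those of Timp4 with Syn2, and 0 for the other pairs named. Whether counting used strand is not given, so reads from shared bases cannot be told apart.

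Of these overlapping genes, 4 had a value in mutant 1 outside the range of the other libraries by a wide margin, Syn1, Syn3, Cep295nl and Chchd10. Syn1 was 13.8 FPKM in mutant 1, where Timp1 was listed at 0, and 4.78 and 5.95 FPKM in mutants 2 and 3, against 3.01 to 5.84 FPKM in the controls. Syn3 was 13.4 FPKM in mutant 1 and 1.33 and 2.56 FPKM in mutants 2 and 3, against 1.33 to 2.35 FPKM in the controls. Cep295nl was 14.3 FPKM in mutant 1 and 0.688 and 0.679 FPKM in mutants 2 and 3, against 0.435 to 0.514 FPKM in the controls. Chchd10, a mitochondrial protein gene, was listed at 0 in mutant 1 and was 11.9 and 8.53 FPKM in mutants 2 and 3, against 20.3, 20.4 and 27.2 FPKM in the controls. How these values bear on Timp1, Timp2, Timp3 and Mmp11 in mutant 1 was not tested.

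**Figure D4:**
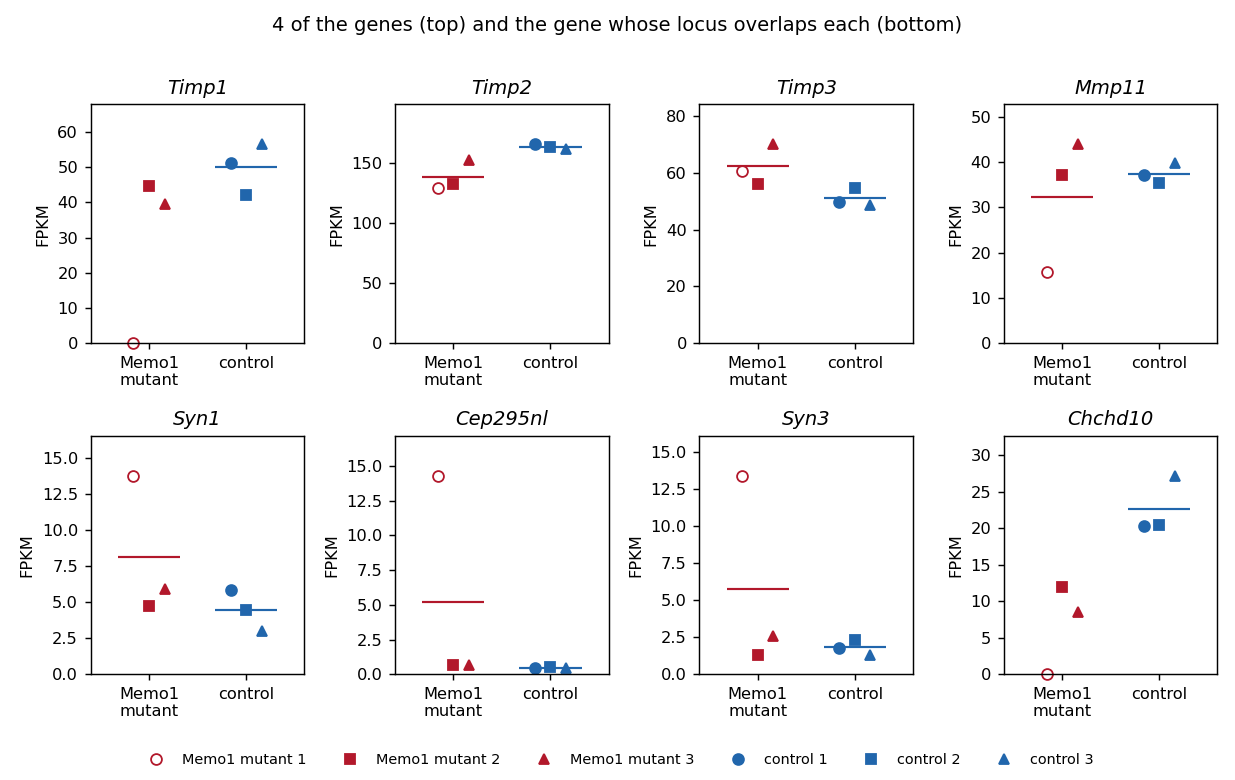
FPKM of Timp1, Timp2, Timp3 and Mmp11 (top row) and of the gene whose locus overlaps each (bottom row), in Memo1 mutant libraries (left) and control libraries (right), with axes linear from 0 and group means as lines, left out where a library is at 0. The open circle is mutant 1, which is the highest library for Syn1, Cep295nl and Syn3 and is at 0 for Timp1 and Chchd10.

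The authors' deposited table gives, from a test that is not described in the sources used here, a p of 0.0128 for Mmp2, 0.0256 for Mmp14, 0.0291 for Timp2 and 0.0576 for Timp3. The q-values in the authors' deposited table are 0.293, 0.363, 0.372 and 0.449 for the same genes, so none of the 4 passed 0.05 there either.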

How the data were processed

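The cranial base of each embryo was kept in RNAlater until it was genotyped, and Illumina libraries were then made from its RNA, per the labels' protocols. The authors deposited 1 table of 43496 entries with an FPKM value for each library; Cufflinks, without a version, and build mm9 are named in the submitters' processing notes, and the unit was inferred from that tool and the values. The aligner, annotation and strand setting, and the test behind the deposited p-value and q-value (a score with the code 99 in 37016 entries), are not stated in the labels.

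The code 999999999 was treated as missing, and 15 entries with it were left out. The others with a mean of at least 1 FPKM, 15710 entries, went into limma 3.58.1 (R 4.3.3) as log2(FPKM + 1), with genotype as the only term, trend and robust estimates, two-sided, with Benjamini-Hochberg adjustment over all entries and a threshold of 0.05. That scale understates the change of low genes. The test was tried on simulated data that took their spread from the libraries other than mutant 1. That trial does not show how the test performs with mutant 1 included. Replicates are separate embryos, numbered in accession order, which pairs none of them. No library was a copy of another, as no pair shared more than 0.00639% of its tested values. Alternatives were array weights, scaling by median ratios, a pseudocount of 0.1, other filters, the title word as a block and each library left out. The members and all lists were chosen with earlier results of these data known. Named were all members, Memo1, Mmp9, Mmp13, the 2 genes with the smallest p in each of 5 pathway lists and any called with array weights, and the 2 genes most like each of the 3 most abundant members; Mmp17, Mmp24, Mmp28, Xist, Acp5, Ctsk and the overlapping genes were chosen after their values were seen. RefSeq promoters and GENCODE M21 are of GRCm38, and no coordinates of the files are given.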

Additional observations from a re-analysis of the deposited data

How the results depend on the processing

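Over the 13 settings no member passed, with adjusted p from 0.131 to 0.995 by limma. Mmp2, Mmp14, Mmp16, Mmp23 and Timp3 kept a log2 change above 0 and Timp1 and Timp2 one below 0 in every setting run. For Mmp2, Mmp14, Timp2 and Timp3 every mutant lay beyond every control. Their sign was thus fixed beforehand with any library left out or reweighted, or another pseudocount or filter, and adds no support. Mmp11 turned with array weights (0.14) and without mutant 1 (0.11), and Timp4 turned with array weights (-0.088) and without mutant 1 (-0.13). Mmp15 turned without control 3 (-0.0035), without mutant 2 (-0.036) and with the title word as a replicate block (-0.024), and Memo1 turned without control 1 (-2.5e-04) and without mutant 1 (-0.011). With 1 library left out at a time, the log2 change ran from -0.61 to 0.11 for Mmp11, -0.036 to 0.1 for Mmp15, -0.13 to 0.87 for Timp4 and -0.011 to 0.15 for Memo1. The count of genes called was 0 in the main fit, 320 with array weights and 0 to 7 when 1 library at a time was left out, with 7 without mutant 1. In the list of other metalloproteinases it was 0, 2 with array weights and 0 to 1 with 1 library left out, the 1 being Mmp13 without mutant 1; in the plasminogen list and in the list of matrix proteins it was 0, and 1 with array weights. The titles do not show that the shared word pairs embryos, and the replicate block left 0 genes called. Timp4 lay below the filter of 5 FPKM and has no value there. The depth of mutant 1 is unknown, and its 0 values cannot be read as absence. The cause of these turns was not tested.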

Other observations

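Because Timp1 was listed at 0 in mutant 1 and its locus overlaps another gene, overlaps were counted over the table. Of 813 annotated genes above 5 FPKM in the other 5 libraries and at 0 in mutant 1, 369 (45.4%) overlapped another annotated gene, against 5166 of 9346 (55.3%) among those above 0 in mutant 1. These shares are given as counts, with no test. Syn2, whose exons share bases with those of Timp4, was 2.28, 3.84 and 4.83 FPKM in mutants 1, 2 and 3, against 4.1, 2.93 and 2.6 FPKM in the controls, so in mutant 1 it was the lowest of 6 where Timp4 was the highest.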
